A study of Mus musculus with 9 samples.

Results

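Chromosomes 5 and 8 were examined as distant partners of Dbp, a gene on chromosome 7, in 9 arrays of a chromosome conformation capture-on-chip (4C) experiment. All probes that the deposited files place on these chromosomes were taken: 21805 on chromosome 5 and 19312 on chromosome 8, together 41117 of the 384942 probes of each array. The rule takes every probe of both chromosomes, whatever its value. The probes are 59 nt long. They ran from 3044354 to 151999773 on chromosome 5 and from 3083713 to 132065515 on chromosome 8, in the coordinates of the files. The sources used here do not name the genome build. Gene content and sequence of the regions were therefore not analysed here. A probe was called high when its value exceeded the 95th percentile of the same array, taken over all 365587 probes off chromosome 7. About 5% of probes are thus high in every array. Shares of high probes do not depend on the scale of an array's ratios, though they can still depend on its noise.

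The study asked how the contacts of Dbp vary with circadian time and with loss of Bmal1. All samples were fibroblasts grown from C57BL/6 mouse embryos taken at embryonic day 13, and all were treated with dexamethasone for 2 h, a glucocorticoid pulse that brings the clocks of cultured cells into step. Wild-type (WT) line 1 was collected at circadian time (CT) 22, 26, 30, 34 and 46 h, a Bmal1-/- line at CT22 and CT34, and a further wild-type line, line 2, at CT22 and CT34. Line 1 and the Bmal1-/- line came from animals of the same breeding scheme and were cultured in DMEM with NCS, heat-inactivated FBS and amino acids. Line 2 came from another cross, of heterozygous mice, and was cultured in DMEM with FBS. Each line and time is 1 array, so genotype cannot be told apart from the culture of the Bmal1-/- line, nor line 2 from its medium. Sample names of line 2 give 24 and 36 where the labelled times are CT22 and CT34. The arrays measure ligated DNA and not RNA, so neither the cell type nor the loss of Bmal1 could be checked here.

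In 4C, crosslinked chromatin is cut and ligated so that fragments lying close together in the nucleus are joined, and everything joined to a chosen viewpoint is amplified and hybridized against genomic DNA of the same cells. Contacts between chromosomes are rare in each cell and show up in a population as stretches in which many neighbouring probes are raised. Dbp encodes a transcription factor that is transcribed in a circadian cycle. The protein made from Bmal1 is part of the activator that drives the clock and many of its target genes, Dbp among them.

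Each value is the deposited log ratio of Cy5 (4C DNA) to Cy3 (genomic DNA), taken as log2 after the convention of the scanner software, and was centred here on the median of its array. The spread was much narrower in line 2 than elsewhere: the limit for a high probe was 0.51 and 0.52 there. Line 1 arrays had limits of 1.64 to 2.07, and the Bmal1-/- arrays of 2.16 and 2.73. Comparisons of mean ratios between lines therefore carry this difference in scale. Shares of high probes do not carry the scale, but they can still differ with the noise of an array. Off chromosome 7 the probe next to a high one was itself high in 8.92% of cases in line 1. The same value was 7.62% in Bmal1-/- and 5.59% in line 2. What part noise has in the lower block shares of line 2 was not tested. The chromosomes were divided into windows of 1 Mb. Of these, 147 on chromosome 5 (median 151 probes) and 125 on chromosome 8 (median 156 probes) had at least 20 probes. The longest stretches without a probe ran from 25423112 to 26339093 on chromosome 5 and from 20192093 to 22459439 on chromosome 8.

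Over the whole chromosome, chromosome 8 was richer in high probes than the other chromosomes off chromosome 7, and chromosome 5 was not shown to differ from them. On chromosome 8 the share of high probes in line 1 was 5.69%, 6.26%, 5.71%, 5.99% and 5.79% at CT22, CT26, CT30, CT34 and CT46. Both Bmal1-/- arrays held 5.40%, and line 2 held 4.98% and 5.11%. All other chromosomes off chromosome 7 together held between 4.78% and 4.98%, so chromosome 8 lay above them in 9 of 9 arrays, by 0.681 percentage points on average (SD 0.372, n = 9 arrays). An exact permutation test over the signs of the 9 differences, two-sided, gave p = 0.0039, the smallest value it can give, and 0.0078 after Benjamini-Hochberg adjustment over both chromosomes. Arrays of a line share their cells' origin, so this p measures the spread between arrays and not between independent lines. The excess was 0.949 ± 0.255 percentage points (SD, n = 5) in line 1, 0.431 in Bmal1-/- and 0.261 in line 2. In line 1 alone the exact permutation p was 0.0625, the smallest that 5 arrays allow. With a high probe defined by the 99th percentile the excess of chromosome 8 shrank to 0.0553 points and no longer passed the exact permutation test (p = 0.199). All 5 line 1 arrays lay above both Bmal1-/- arrays, and the exact permutation test between them gave p = 0.0952, the smallest that 5 against 2 arrays allow, and 0.19 after adjustment.

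On chromosome 5 the line 1 arrays held 5.37%, 5.04%, 5.13%, 5.08% and 4.89% high probes in the same order of times. The Bmal1-/- arrays held 4.54% and 5.00%, and the line 2 arrays 4.97% and 4.88%. These values straddled those of the other chromosomes: the difference was positive in 7 of 9 arrays, with a mean of 0.0449 percentage points (SD 0.242, n = 9 arrays) and an exact permutation p of 0.566. Ranked by mean share among the 19 chromosomes off chromosome 7, chromosome 8 stood 6th in line 1 and in Bmal1-/- and 7th in line 2. Chromosome 5 stood 8th, 11th and 8th in the same order.

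**Figure D1:**
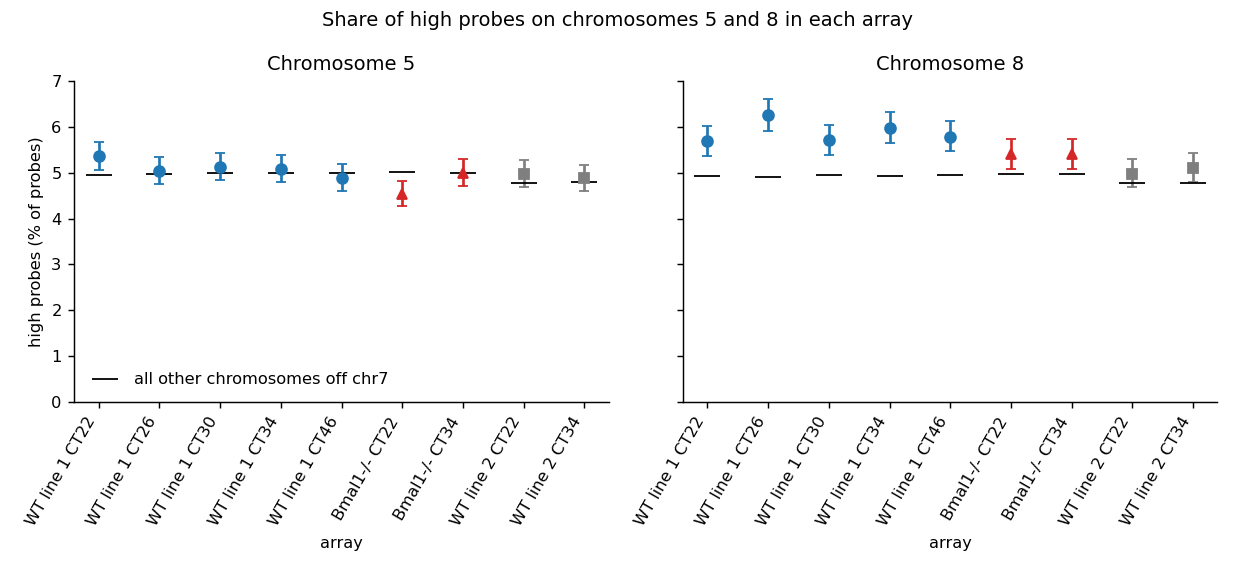
Share of high probes (percent of the chromosome's probes) in each of the 9 arrays for chromosome 5 (left) and chromosome 8 (right); whiskers are exact 95% Clopper-Pearson intervals, which cover counting error only, and black dashes give the share over all other chromosomes off chromosome 7. On chromosome 8 every array lies above its dash, from 4.98% in line 2 to 6.26% in line 1 at CT26, while on chromosome 5 the points lie around the dashes.

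Along each chromosome the high probes were unevenly spread. In a given array a 1 Mb window was called a contact window when its number of high probes exceeded the share off chromosome 7 in a one-sided binomial test, with Benjamini-Hochberg adjustment over the 2399 windows off chromosome 7 and a threshold of 0.05. Such a call describes 1 array. On chromosome 5 the line 1 arrays had 21, 25, 20, 16 and 16 contact windows in the order of times, the Bmal1-/- arrays 10 and 14, and the line 2 arrays 0 and 2. For chromosome 8 the counts were 17, 25, 24, 16 and 18 in line 1, 11 and 16 in Bmal1-/-, while line 2 had 0 and 5. Over all 2399 windows off chromosome 7 the line 1 arrays had 252, 297, 279, 238 and 269. The Bmal1-/- arrays had 176 and 224 there, and the line 2 arrays 13 and 40. Line 1 at CT26 thus had the most contact windows on either chromosome, and line 2 at CT22 had none. The same arrays had the most and the fewest off chromosome 7 as a whole, so this order was not particular to chromosomes 5 and 8.

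The contacts that recurred formed few and short blocks. At all 5 times of line 1, 9 of 147 windows were called on chromosome 5 (6.12%) and 11 of 125 on chromosome 8 (8.80%), against 5.09% of all windows off chromosome 7. A further 24 and 22 windows were called at 1 to 4 times, so that 33 windows on each chromosome were called at least once, 22.4% on chromosome 5 and 26.4% on chromosome 8, against 19.4% off chromosome 7. Adjacent windows called at all 5 times were joined into blocks, 6 on each chromosome. The rule used line 1 alone, so the line 1 values of these blocks are a description, and lower values in the other lines are partly set by the choice.

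On chromosome 5 the blocks lay in 2 zones, 1 in the proximal part and 1 in the distal part, with none between 33000000 and 115000001. Block A ran from 24000001 to 25000000 (157 probes), block B from 31000001 to 33000000 (285 probes), block C from 115000001 to 116000000 (137 probes), block D from 122000001 to 125000000 (402 probes), block E from 139000001 to 140000000 (142 probes) and block F from 143000001 to 144000000 (111 probes).

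Block B was the strongest proximal contact. It held 17.2%, 18.9%, 15.4%, 17.5% and 15.4% high probes in line 1 at CT22 to CT46, 13.3% and 18.2% in Bmal1-/-, while line 2 held 7.37% and 7.02%. The Bmal1-/- array at CT34 lay within the range of line 1, the one at CT22 below it, and both line 2 arrays far below it. The mean of line 1 was 16.9% ± 1.50 (SD, n = 5), and the 4 windows flanking the block held 8.47%. Within block B the highest 100 kb piece lay from 31100001 to 31200000, with 30.0% ± 6.33 high probes in line 1, 16.7% in Bmal1-/- and 2.78% in line 2. Of the 19 pieces of this block with at least 5 probes, 18 exceeded 5% in line 1, on which the block was chosen. The pieces held few probes (18 in the highest one), and pieces outside the blocks were not counted. An even filling of the block was therefore not shown. The 1 Mb window from 31000001 was the richest of chromosome 5, with 20.7% ± 3.47 in line 1.

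Block D, the longest of chromosome 5, held 16.2%, 17.9%, 14.7%, 17.7% and 14.4% in line 1, 11.4% and 16.7% in Bmal1-/-, while line 2 held 6.72% and 8.71%. Again the Bmal1-/- array at CT34 reached the level of line 1 and the one at CT22 did not. All 3 windows of this block were called in Bmal1-/- at CT34 and 1 of them at CT22. The 4 flanking windows held 5.81% in line 1, close to the share of the whole array. The highest piece in line 1, from 123000001 to 123100000, had only 14 probes. It held 34.3% ± 10.6 in line 1, 46.4% in Bmal1-/- and 3.57% in line 2, on too few probes to compare the lines.

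Block F held 19.8%, 22.5%, 17.1%, 16.2% and 14.4% in line 1, 9.91% and 13.5% in Bmal1-/-, while line 2 held 11.7% and 8.11%. It was the richest block of chromosome 5 in line 1 (18.0% ± 3.19, SD, n = 5), and all line 1 arrays lay above the 4 others. Block C was less even between times, with 18.2%, 16.1%, 16.8%, 10.9% and 11.7% in line 1, 9.49% and 12.4% in Bmal1-/-, while line 2 held 11.7% and 9.49%. Here the 3 groups overlapped. Blocks A and E were weaker, with line 1 means of 12.6% ± 1.65 and 14.4% ± 1.90. Block A fell to 7.01% and 10.8% in Bmal1-/- and to 5.73% and 4.46% in line 2. Block E kept 12.0% and 13.4% in Bmal1-/-, while line 2 held 9.15% and 7.75%.

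Over 10 Mb, the segment from 30000001 to 40000000, which includes block B, held 9.12% ± 1.22 high probes in line 1, the highest of chromosome 5, and 9.19% in Bmal1-/-, but 5.85% in line 2. From 110000001 to 150000000 the 4 segments held between 6.83% and 7.62% in line 1 and between 6.16% and 7.12% in line 2. In line 2 these distal segments were thus richer than the one with block B. Windows called at 4 of the 5 times lay just outside the rule. They started at 34000001, 65000001, 111000001 and 136000001 and held 12.6%, 11.9%, 12.8% and 14.3% in line 1. The weakest window inside it, block A, held 12.6%.

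On chromosome 8 the blocks lay in the proximal end, the middle and the distal part, with the longest at the distal end. Block A ran from 13000001 to 14000000 (153 probes), block B from 73000001 to 74000000 (112 probes), block C from 87000001 to 89000000 (283 probes), block D from 97000001 to 98000000 (149 probes), block E from 108000001 to 110000000 (308 probes) and block F from 124000001 to 128000000 (540 probes).

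Block F of chromosome 8 was the longest block of both chromosomes. It held 17.6%, 18.5%, 14.1%, 17.0% and 17.0% in line 1, 14.3% and 16.5% in Bmal1-/-, while line 2 held 9.07% and 10.4%. Both Bmal1-/- arrays lay within the range of line 1, and both line 2 arrays below it. All 4 windows were called in both Bmal1-/- arrays, and 1, from 125000001, also in line 2 at CT34. Each of its 40 pieces of 100 kb exceeded 5% in line 1, on which the block was chosen. The highest, from 125400001 to 125500000, had 16 probes and held 32.5% ± 12.0. The surroundings were raised too: the 4 flanking windows held 10.7% in line 1. The 10 Mb segment from 120000001 to 130000000 was the richest of either chromosome, with 12.0% ± 0.935 in line 1, 10.1% in Bmal1-/- and 7.92% in line 2.

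Block B of chromosome 8 had the highest mean in line 1 (20.4% ± 4.87, SD, n = 5). Its values were 18.8%, 28.6%, 17.9%, 16.1% and 20.5% in line 1, 15.2% and 13.4% in Bmal1-/-, while line 2 held 11.6% and 15.2%. The mean of line 1 leaned on CT26, and line 2 came closer to line 1 here than in the other blocks of chromosome 8. Block E held 19.5%, 25.3%, 19.2%, 15.3% and 15.6% in line 1, 15.6% and 15.9% in Bmal1-/-, while line 2 held 8.77% and 9.42%. Bmal1-/- thus sat at the lower end of line 1, and line 2 clearly below. The highest piece of block E in line 1, from 108900001 to 109000000, had only 12 probes. It held 35.0% ± 6.97 in line 1, 37.5% in Bmal1-/- and 16.7% in line 2, on too few probes to compare the lines.

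Block C was the most even in time, with 14.5%, 14.8%, 14.8%, 14.5% and 16.3% in line 1, 11.0% and 14.5% in Bmal1-/-, while line 2 held 4.95% and 7.07%. In line 2 it did not stand out from its 4 flanking windows, which held 6.99%. Block D ranged from 12.8% to 22.8% in line 1, with 10.1% and 16.8% in Bmal1-/-, while line 2 held 7.38% and 6.04%. Its flanks were the lowest of the 12 blocks in line 1, at 3.95%. Block A ranged from 12.4% to 19.6% in line 1, and Bmal1-/- held 14.4% at CT22 but 7.19% at CT34. Line 2 held 8.50% and 5.23% there. The windows called at 4 of the 5 times started at 72000001 and 123000001, each next to a block, with 14.6% and 12.6% in line 1. The weakest window inside the rule, from 88000001 to 89000000 in block C, held 12.4%.

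**Figure D2:**
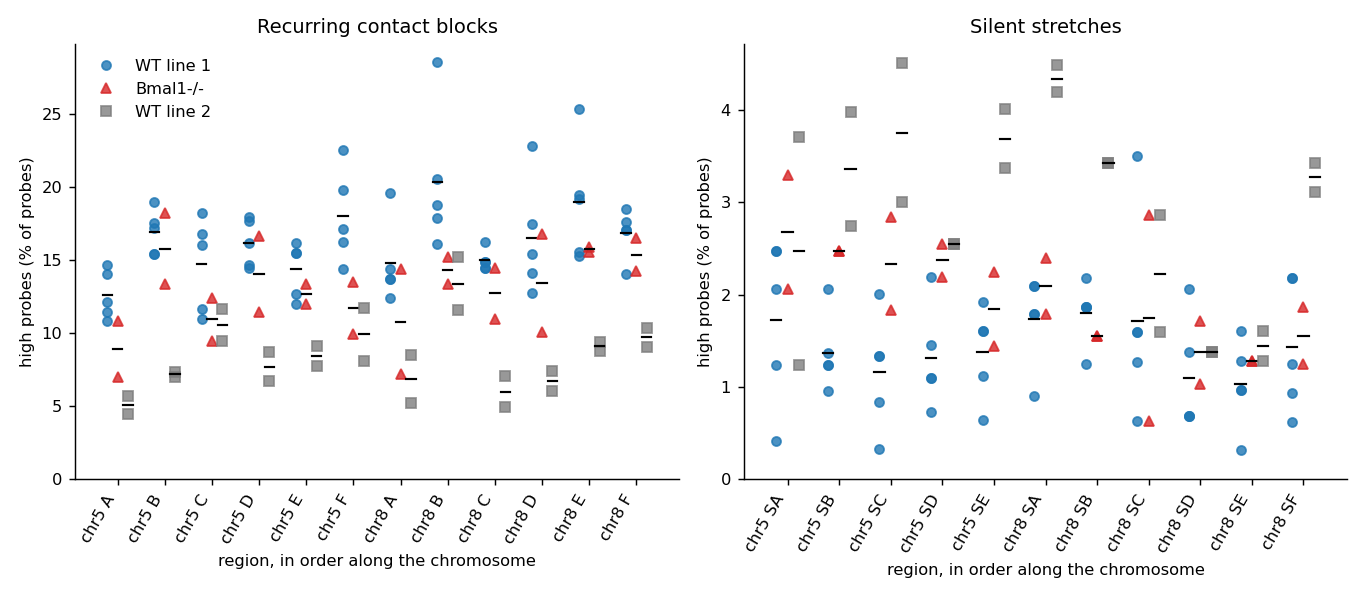
Share of high probes in the 12 recurring contact blocks (left, A to F on each chromosome) and the 11 silent stretches (right, SA onward on each chromosome); each point is 1 array, black bars are group means, and both axes start at 0 with different ranges. Both were chosen on line 1, whose block means lie between 12.6% and 20.4% and whose silent means lie between 1.03% and 1.81%, and line 2 means lie between 5.10% and 13.4% in the blocks.

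Not every block stood under other settings. With a high probe defined by the 99th percentile no window of either chromosome was called at all 5 times, and with windows of 500 kb the called stretch shrank to 2.5 Mb on chromosome 5 and 4 Mb on chromosome 8. Blocks B, D and F of chromosome 5 and B, C, E and F of chromosome 8 overlapped a stretch called at all 5 times in 6 of 7 alternatives, all but the 99th percentile. Block E of chromosome 5 and blocks A and D of chromosome 8 did so in 3, and blocks A and C of chromosome 5 in 2.

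The blocks were not sharply bounded. In windows 1 Mb from a block of chromosome 5 the share of high probes in line 1 was 7.99% ± 1.01 (SD, n = 5), after 15.7% ± 1.36 in the blocks, and at 2 Mb it was 4.75% ± 0.841. The same steps on chromosome 8 were 16.9% ± 2.03, 8.70% ± 0.600 and 5.46% ± 0.673. The next window out thus stood above the array's share of about 5% on both chromosomes, and 2 Mb away line 1 was below it on chromosome 5 and slightly above it on chromosome 8. Bmal1-/- followed the same course, with 13.1%, 6.82% and 3.96% on chromosome 5 and 14.2%, 6.74% and 5.70% on chromosome 8. Line 2 was flatter, with 7.86%, 7.66% and 5.41% on chromosome 5 and 8.61%, 7.34% and 6.41% on chromosome 8.

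**Figure D3:**
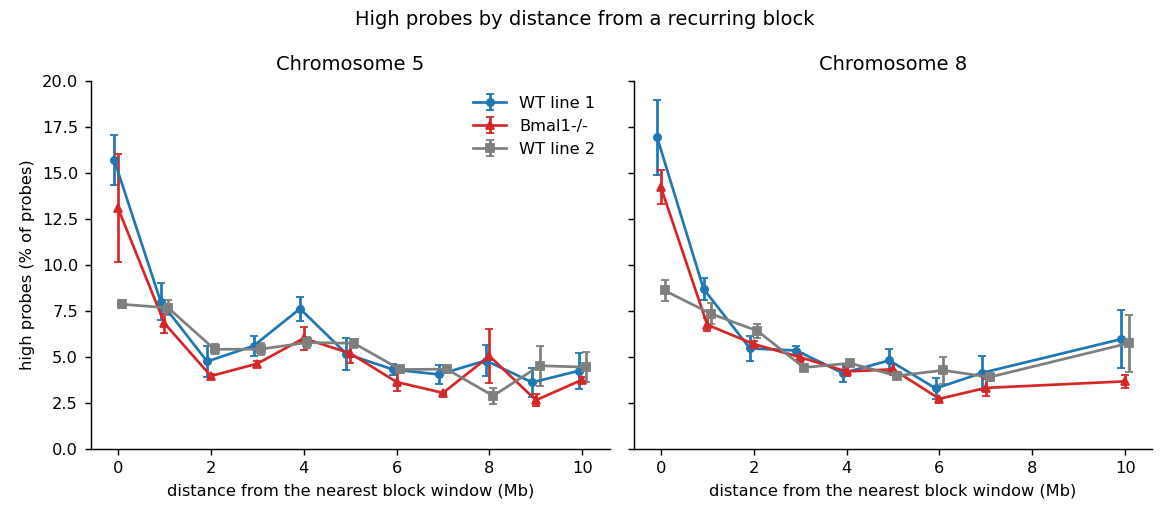
Share of high probes (percent) against the distance from the nearest recurring block window, in steps of 1 Mb, for line 1 (n = 5 arrays), Bmal1-/- (n = 2) and line 2 (n = 2); points are means over arrays and whiskers the SD, and distance 0 is the block itself, chosen on line 1. In line 1 the share falls from 15.7% to 4.75% within 2 Mb on chromosome 5 and from 16.9% to 5.46% on chromosome 8, while line 2 starts at 7.86% and 8.61%.

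The arrays that the rule did not use show how far the blocks recur. Of the 9 windows called at all 5 times on chromosome 5, 4 were also called in both Bmal1-/- arrays and none in line 2. Of the 11 on chromosome 8, 8 were called in both Bmal1-/- arrays and 3 in line 2 at CT34. Off chromosome 7 as a whole, 84 of 122 such windows were called in both Bmal1-/- arrays and 32 in line 2. Over all windows, both Bmal1-/- arrays called 6 on chromosome 5 and 9 on chromosome 8, against 5.46% of windows off chromosome 7. At least 1 Bmal1-/- array called 18 windows on each chromosome, against 11.2% off chromosome 7. Of these, 1 on each chromosome had not been called in any line 1 array, starting at 121000001 on chromosome 5 and 122000001 on chromosome 8. Line 2 called 2 windows on chromosome 5, starting at 114000001 and 137000001, and 5 on chromosome 8, against 1.92% off chromosome 7. The 5 on chromosome 8 started at 73000001, 75000001, 108000001, 123000001 and 125000001, and of these only the one from 75000001 was not called in any line 1 array. It held 8.70% and 13.8% high probes in line 2 and 6.67% on average in line 1.

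Silent stretches were the other recurring feature. A window was counted as silent when its mean share of high probes over the 5 line 1 arrays was at most 2%. On chromosome 5 this held for 28 of 147 windows (19.0%) and on chromosome 8 for 16 of 125 (12.8%), against 22.7% off chromosome 7. None of these silent windows was called in any of the 9 arrays, nor was any of the 545 off chromosome 7. For line 1 this is largely set by the rule. Of all 2399 windows off chromosome 7, 1909 were called in no array. The rule used line 1 alone, so higher shares in the other lines are also partly set by the choice. On chromosome 5, 17 of the 28 joined into 5 stretches, and on chromosome 8, 12 of the 16 into 6 stretches. The windows nearest the limit on chromosome 5 held 2.00% (from 82000001) and 2.01% (from 9000001), and on chromosome 8 1.99% (from 102000001) and 2.04% (from 6000001).

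Of the 5 silent stretches of chromosome 5, 4 lay in its middle, between the proximal and the distal blocks. The other, SA, lay between blocks A and B, from 26000001 to 28000000, with 1.73% ± 0.892 in line 1, 2.67% in Bmal1-/- and 2.47% in line 2, and single silent windows also lay in the proximal and distal parts. The longest stretch, SB, ran for 5 Mb from 59000001 to 64000000 and held 1.37%, 0.960%, 1.23%, 2.06% and 1.23% of its 729 probes as high in line 1, 2.47% in both Bmal1-/- arrays, and 3.98% and 2.74% in line 2. All 5 line 1 arrays lay below the other 4, which is partly set by the choice on line 1. The silent windows off chromosome 7 as a whole held 1.41% in line 1, 2.02% in Bmal1-/- and 3.63% in line 2 on average. SC, from 68000001 to 72000000, held between 0.334% and 2.00% in line 1, 2.84% and 1.84% in Bmal1-/-, while line 2 held 3.01% and 4.51%. SE, from 82000001 to 86000000, held between 0.642% and 1.93% in line 1, 1.44% and 2.25% in Bmal1-/-, while line 2 held 4.01% and 3.37%. The 10 Mb segment from 80000001 to 90000000, in which SE lies, was the poorest of either chromosome, with 1.91% ± 0.454 in line 1. Between SC and SE lay the shorter SD, from 79000001 to 81000000, with 1.31% ± 0.553 in line 1, 2.37% in Bmal1-/- and 2.55% in line 2. The windows between the middle stretches were not empty: the 10 Mb segment from 70000001 held 5.00% ± 0.593 in line 1.

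On chromosome 8 no silent stretch was longer than 2 Mb. The lowest, SE, from 61000001 to 63000000, held 0.965%, 0.322%, 0.965%, 1.61% and 1.29% of its 311 probes as high in line 1, 1.29% in both Bmal1-/- arrays, and 1.29% and 1.61% in line 2. All 9 arrays were low here. SD, from 53000001 to 55000000, was likewise low in all lines, with 1.10% ± 0.615 in line 1, 1.37% in Bmal1-/- and 1.37% in line 2. In SF, from 99000001 to 101000000, Bmal1-/- stayed at 1.56% beside 1.43% ± 0.717 in line 1, but line 2 held 3.27%. SC, from 39000001 to 41000000, ranged from 0.637% at CT30 to 3.50% at CT46 in line 1, and held 0.637% and 2.87% in Bmal1-/-, while line 2 held 1.59% and 2.87%. The segments from 50000001 to 70000000 were the poorest of chromosome 8, at 2.51% ± 0.566 and 2.98% ± 0.603 in line 1.

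The lines that the rule did not use give a measure of how far silence recurs. Of the 28 silent windows of chromosome 5, 27 had a mean share under 5% in Bmal1-/- and 26 in line 2, and of the 16 on chromosome 8, 16 and 14. Off chromosome 7 as a whole the counts were 541 and 465 of 545. A share under 5% is common, since the median window of chromosome 5 held 3.90% in Bmal1-/- and 4.69% in line 2, and that of chromosome 8 4.44% and 4.85%. Held to the same limit of 2%, 13 of the 28 and 14 of the 16 were silent in Bmal1-/-, and 3 and 5 in line 2, beside 288 and 62 of the 545 off chromosome 7. Only 6 and 7 windows reached that limit in line 2 over the whole of either chromosome, against 5.13% off chromosome 7.

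Over all windows, arrays of line 1 resembled each other closely. Across the 147 windows of chromosome 5, the share of high probes correlated between 2 line 1 arrays with a median r of 0.829 (range 0.80 to 0.862 over 10 pairs), and across the 125 windows of chromosome 8 with 0.847 (0.792 to 0.882). Between line 1 and Bmal1-/- the median was 0.807 and 0.826, hardly lower. Between line 1 and line 2 it was 0.550 and 0.567, although the line 2 arrays correlated with each other at 0.642 and 0.766. These values describe windows of the same arrays, which share probe sequences and genomic DNA controls, and windows are not independent replicates. The share in line 1 went weakly against the number of probes per window, with r of -0.178 on chromosome 5 and -0.262 on chromosome 8.

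**Figure D4:**
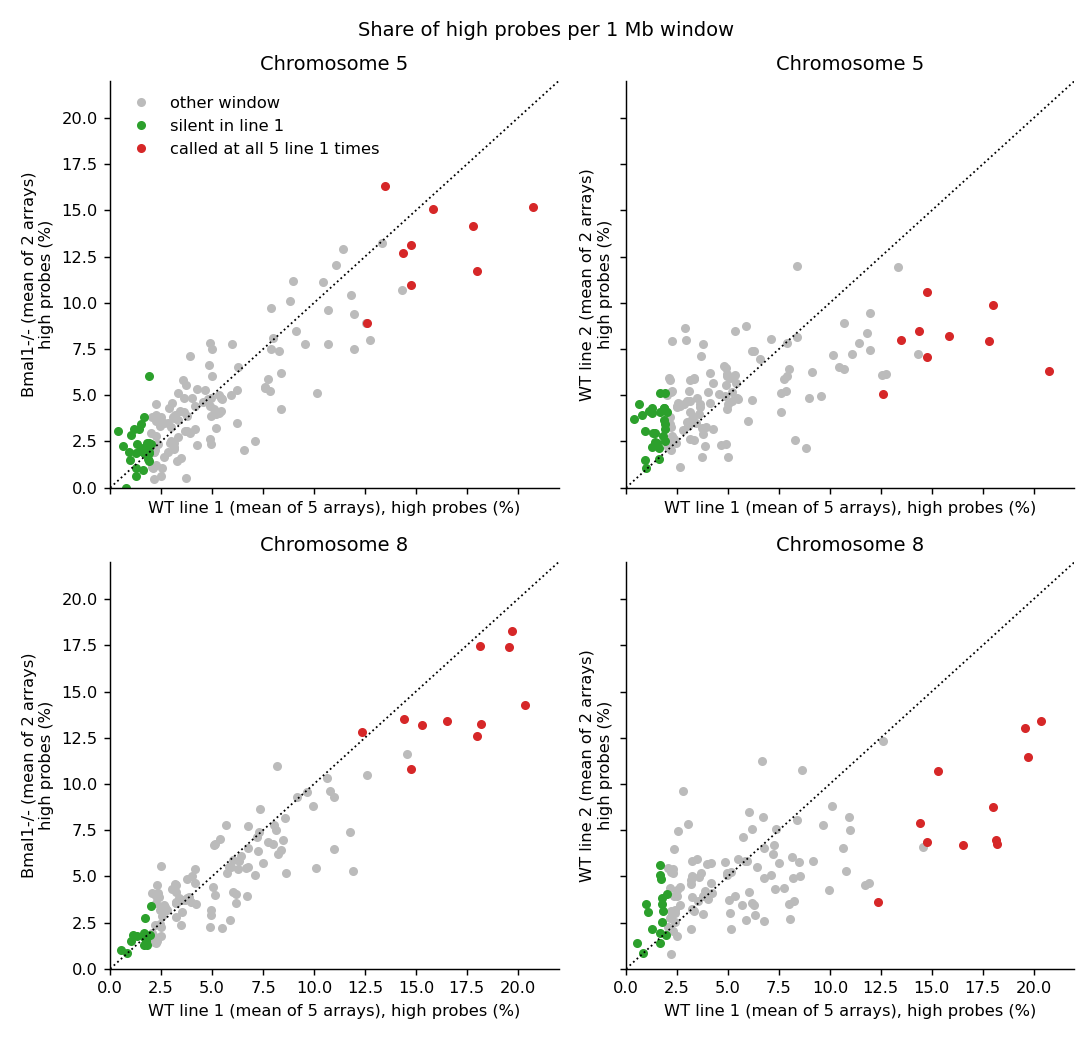
Mean share of high probes (percent) per 1 Mb window in line 1 (x axis, n = 5 arrays) against Bmal1-/- (left) or line 2 (right, n = 2 arrays each), for 147 windows of chromosome 5 (top) and 125 of chromosome 8 (bottom); the dotted line marks equal shares, red windows were called at all 5 line 1 times and green ones were silent in line 1. Windows follow the line for Bmal1-/-, with r of 0.892 and 0.928 between the means, and are flatter for line 2, with 0.643 and 0.652.

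Few of the probes behind these windows were high throughout. On chromosome 5, 5771 probes (26.5%) were high in at least 1 array, 60 at all 5 line 1 times and 6 in all 9 arrays. On chromosome 8 the numbers were 5721 (29.6%), 49 and 2, and off chromosome 7 as a whole 33 probes were high in all 9. Most high probes did not repeat: of the probes high in any line 1 array, 75.1% on chromosome 5 and 74.1% on chromosome 8 were high in exactly 1 of the 5, beside 76.5% off chromosome 7. Those high at all 5 times mostly recurred in Bmal1-/-, 56 of 60 on chromosome 5 and 38 of 49 on chromosome 8 being high in both Bmal1-/- arrays, while 14 and 8 were high in a line 2 array. Off chromosome 7, 726 of 897 such probes were high in both Bmal1-/- arrays and 119 in a line 2 array. Off chromosome 7 as a whole, 0.245% of probes were high at all 5 times, beside 0.275% on chromosome 5 and 0.254% on chromosome 8. Probes of the recurring blocks, 5.66% and 8.0% of the probes of their chromosomes, made up 35.0% and 36.7% of those high at all 5 times, which is partly set by the rule of the blocks.

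The probes high in most arrays were not all in blocks. A probe of chromosome 5 that was high in all 9 arrays lay at 6432755 to 6432813, with log2 ratios of 3.69, 2.36, 4.28, 5.18 and 2.84 in line 1, 4.12 in both Bmal1-/- arrays, and 2.89 and 3.12 in line 2. None of its 10 nearest probes was high in any array, so it stood alone. The probe at 55076529 to 55076587 was high in all 9 arrays too, between 4.20 and 5.10 in line 1, at 5.15 and 4.92 in Bmal1-/- and at 1.37 and 0.84 in line 2, and 1.11% of its neighbours' values were high. The probe at 123792788 to 123792846 lies in block D, with ratios between 4.26 and 4.79 in line 1 and 7.78% of its neighbours' values high. Those of chromosome 5 starting at 50954838 and 42593852, also high in all 9 arrays, lay outside the blocks. Of their neighbours' values 7.78% and 1.11% were high. The place of the remaining probe of chromosome 5 high in all 9 arrays is not given here. On chromosome 8 the probes high in all 9 arrays lay at 123091362 to 123091420 and 42082760 to 42082818, both outside the blocks. Of the 3 next, high in 8 of 9 arrays, those at 108814509 and 125067702 lay in blocks E and F and the one at 47087798 did not. In the same order, 14.4%, 15.6% and 22.2% of their neighbours' values were high. Raised neighbours were thus not confined to probes in blocks.

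Beyond such lone probes, high probes tended to lie together. The probe next to a high one was itself high in 9.49% ± 0.965 of cases on chromosome 5 in line 1 and in 10.3% ± 1.37 on chromosome 8, against 8.92% ± 0.655 off chromosome 7. At 100 probes away these shares were 7.35% ± 0.769 and 8.10% ± 0.797, and at 400 probes 5.30% ± 1.03 and 6.44% ± 0.972. In line 2 the adjacent probe was high in 5.31% ± 0.597 and 6.30% ± 1.27 of cases, little above the overall share.

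Stability in time was tested by comparing WT CT22 with WT CT34 over 4 arrays, 1 of each line at each time, in mean log2 ratio per window. No window of chromosomes 5 and 8 passed (limma on 2536 windows of the genome, Benjamini-Hochberg adjusted p under 0.05). None reached an unadjusted p of 0.05 either. The same held for all 2536 windows of the genome, of which 0% were called. Differences between CT34 and CT22 ran from -0.22 to 0.15 over the 272 windows, of which 120 were higher and 152 lower at CT34, and the median standard error was 0.0703. The smallest p on chromosome 5 belonged to the window from 82000001 to 83000000, at -0.09 ± 0.047 (SE), and on chromosome 8 to that from 96000001 to 97000000, at -0.09 ± 0.053 (SE), both with an adjusted p of 1.00 (limma). In that fit the difference between the lines counts as error. It could therefore hardly call any window, and the lack of calls does not show stability in time. With line as a block, 1 window was called, in block E of chromosome 8 from 109000001 to 110000000. There the ratio differed by -0.22 ± 0.049 (SE) at CT34 (limma, adjusted p = 0.024). Over the genome 0.552% of windows were called, and 12 of the 272 had an unadjusted p under 0.05. The fit with line as a block drew its 35.5 degrees of freedom mostly from the variance pooled over all windows.

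The values of that window were 0.86, 0.67, 0.68, 0.47 and 0.73 in line 1 at CT22 to CT46, 0.66 and 1.01 in Bmal1-/-, while line 2 had 0.12 and 0.06. It was lowest at CT34 in line 1, the fall in line 2 was small, and Bmal1-/- was higher at CT34. The share of high probes there was 23.2%, 21.3%, 18.7%, 11.0% and 16.8% in line 1, 11.6% and 14.8% in Bmal1-/-, while line 2 held 6.45% and 7.10%, so in line 2 the share did not fall.

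A 24 h rhythm over the 7 wild-type arrays, fitted as a cosine and a sine term with line as a factor, passed in no window either (limma F test, smallest adjusted p = 0.669). Of the 272 windows, 22 had an unadjusted p under 0.05 (8.09%), against 6.43% of all windows, and 0% of windows were called over the genome. The largest fitted amplitude among the named windows was 0.33 on the log2 scale, in block F of chromosome 8 from 126000001 to 127000000, which had 0.84, 0.54, 0.62, 0.79 and 0.96 in line 1 and 0.07 and 0.16 in line 2. On chromosome 5 the window from 3000001 to 4000000 had the smallest p, with an amplitude of 0.23 and line 1 values of 0.44, 0.15, 0.24, 0.36 and 0.42. In both, CT26 was the lowest of line 1. Each time of line 1 is 1 array, so time and array cannot be told apart there. Without a minimum of probes, 1 window was called, from 132000001 on chromosome 8, which holds 6 probes (limma, adjusted p = 0.0493), against 0.0777% of all windows.

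Bmal1-/- was compared with WT over 6 arrays at CT22 and CT34 with time as a term. Again 0 windows of chromosomes 5 and 8 passed (limma, smallest adjusted p = 0.193), as did 0% of windows over the genome, while 54 of the 272 had an unadjusted p under 0.05, each higher in Bmal1-/-. The shift was general: 262 of 272 windows were higher in Bmal1-/-, with a median difference of 0.13, beside 2430 of 2536 and a median of 0.14 over the genome. It was larger in the blocks than in the silent windows, both classes set on line 1. The medians were 0.36 and 0.07 on chromosome 5 and 0.46 and 0.04 on chromosome 8. The WT side included both line 2 arrays, whose ratios were narrow. In block D of chromosome 5 the ratios at CT22 and CT34 were 0.62 and 0.99 in Bmal1-/-. They were 0.72 and 0.76 in line 1 and 0.09 and 0.16 in line 2. In block C of chromosome 8 they were 0.63 and 0.85, 0.48 and 0.57, and 0.07 and 0.12 in the same order. How much of the shift came from line 2 was not tested. Ratios were also more widely spread in Bmal1-/- than in the other arrays, as given above. Divided by the SD of each array, 0 windows passed (limma), with 35 at an unadjusted p under 0.05, each higher in Bmal1-/-. After quantile normalization of the arrays, 15 windows had an unadjusted p under 0.05, 8 higher and 7 lower in Bmal1-/-, and with shares of high probes 8 windows, 3 higher and 5 lower. The direction thus depended on the scale.

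The smallest p belonged to the window from 13000001 to 14000000 on chromosome 5, which had 0.31 and 0.30 in Bmal1-/-, 0.00 and 0.04 in line 1 at the same times and -0.02 at both times in line 2. It was higher by 0.30 ± 0.039 (SE; limma, adjusted p = 0.193), above all 7 wild-type arrays. On chromosome 8 the window from 105000001 to 106000000 had 0.38 and 0.25 in Bmal1-/-, 0.09 and 0.08 in line 1 and 0.04 and 0.01 in line 2, a difference of 0.26 ± 0.048 (SE; limma, adjusted p = 0.193). When all 5 line 1 arrays replaced the wild-type arrays of both lines, 22 windows passed (limma), 9 on chromosome 5 and 13 on chromosome 8, each higher in Bmal1-/- by 0.16 to 0.43, against 9.46% of all windows. These held both windows just named and 2 block windows, from 32000001 on chromosome 5 and from 88000001 on chromosome 8. Divided by the SD of each array, these values gave 11 windows, against 5.56% of all. With trend and robust variance in the fit over 6 arrays 34 windows passed, against 13.4% of all windows. Of the 34, 16 were among the 22. The fit with trend had 7608 degrees of freedom, against 4.56 without it. It thus pooled the variance over windows and hardly used the spread between arrays in a single window. With quantile normalization or shares of high probes, none of the 272 passed in the comparison with 5 line 1 arrays, where 51 and 22 had an unadjusted p under 0.05.

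Line 2 against line 1 gave the most called windows of the limma comparisons. Over 4 arrays with time as a term, 133 of the 272 windows were called (limma, adjusted p under 0.05), 73 on chromosome 5 and 60 on chromosome 8, 131 of them lower in line 2, against 53.4% of windows over the genome (52.9% lower and 0.513% higher). The share on these chromosomes was thus near that of the genome. All 20 block windows were among those called, and 1 of 44 silent windows. Both classes were set on line 1, which is a side of this comparison, so this split is partly set by the choice. In the window from 31000001 to 32000000 of chromosome 5 the ratios were 0.86 and 0.76 in line 1 at CT22 and CT34 and 0.09 at both times in line 2, a difference of -0.72 ± 0.041 (SE; limma, adjusted p = 1.5e-17). In the window from 126000001 to 127000000 of chromosome 8 they were 0.84 and 0.79 against 0.07 and 0.16, a difference of -0.70 ± 0.042 (SE; limma, adjusted p = 5.3e-17). The fit had 35.5 degrees of freedom from 4 arrays, most of them from a variance pooled over all 2536 windows. These SE and p values therefore do not measure the spread between arrays in that window alone. Arrays of a line share their cells' origin, so the values do not measure the spread between independent lines either.

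These differences carry the narrower ratios of line 2, and much of the split depended on the scale. Divided by each array's spread, 71 windows passed, all lower in line 2 (28.5% of all windows passed). After quantile normalization 76 passed, against 25.8% of all windows, of which 51 were higher and 25 lower in line 2. With shares of high probes none passed over 4 arrays (62 at an unadjusted p under 0.05), whereas over 5 line 1 and 2 line 2 arrays 47 passed, 19 higher and 28 lower, against 22.3% of all windows. With the median of the probes in place of their mean no window passed (100 at an unadjusted p under 0.05). With 1 array left out and no term for time, 70 windows passed without line 2 at CT22, 68 without line 2 at CT34, 172 without line 1 at CT22 and 167 without line 1 at CT34. These fits differ from the one over 4 arrays in both respects. So the direction over all windows turned with the scale, while the named block windows of chromosomes 5 and 8 stayed lower in line 2 in each alternative tried. Those windows were named for their small p in this comparison and lie in blocks chosen on line 1, so their direction is partly set by the choice. Over the named windows and alternatives, the call was lost in 13 of 84 cases. Of the 2 windows called as higher in line 2, that from 70000001 to 71000000 of chromosome 5 lies in silent stretch SC and had -0.08 to -0.24 in line 1 and -0.04 in both line 2 arrays. The other, from 6000001 to 7000000 of chromosome 8, had -0.04 to -0.16 in line 1, 0.00 and 0.04 in line 2 and 0.18 and 0.07 in Bmal1-/-. Both were thus windows in which line 1 was low.

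**Figure D5:**
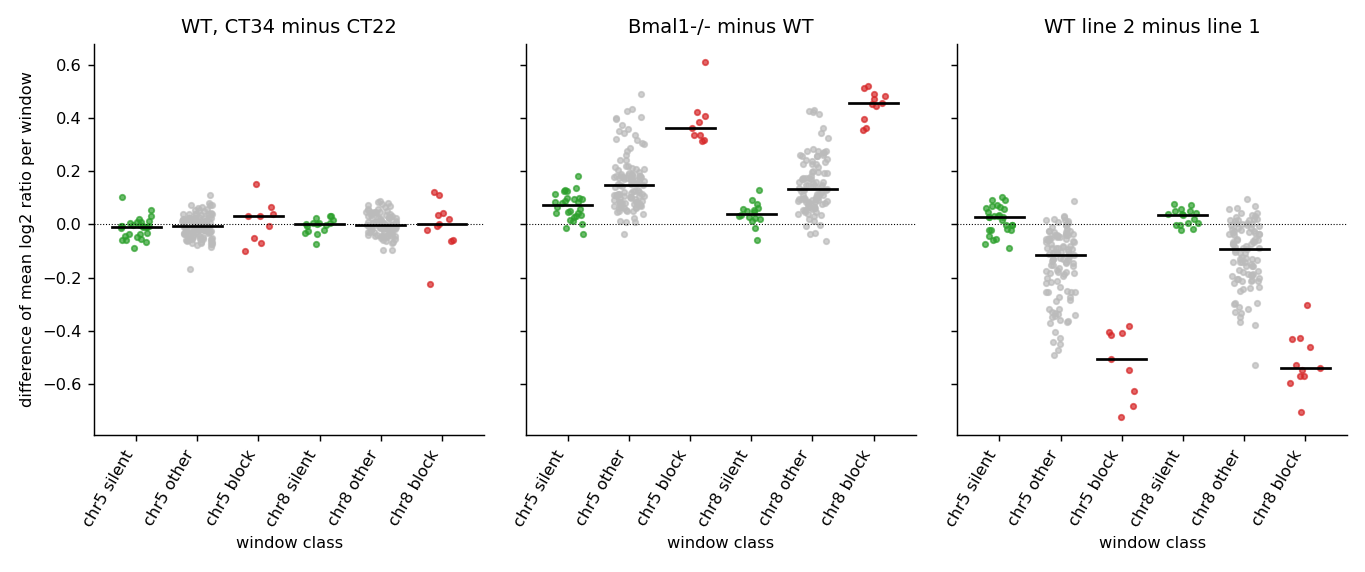
Difference in mean log2 ratio per 1 Mb window for CT34 minus CT22 in WT (left), Bmal1-/- minus WT (middle) and line 2 minus line 1 (right), split into silent, other and block windows of chromosomes 5 and 8; each point is 1 window and black bars are medians. Classes were set on line 1 shares, so the block and silent values are a description: medians lie near 0 for time, at 0.36 and 0.46 in blocks for Bmal1-/-, and at -0.50 and -0.54 in blocks for line 2.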

How the data were processed

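The deposited values are scaled log2 ratios from the NimbleScan software, shifted by the authors by a Tukey biweight mean, per the file headers; the log base is the software's convention and is not written in the files. Each array was centred on its median. Windows of 1 Mb with at least 20 probes were summarised by their mean ratio and by their share of probes above the array's 95th percentile off chromosome 7. Contact calls used a one-sided binomial test per array with Benjamini-Hochberg adjustment; neighbouring probes are not independent, so these p-values and the Clopper-Pearson intervals cover counting error only. Window differences were fitted with limma 3.58.1 (R 4.3.3) on all 2536 windows, in Python 3.11.15 with numpy 2.4.6, pandas 2.3.3 and scipy 1.17.1 for the rest. Calls were tested on simulated data. Named are all blocks, the 4 longest silent stretches and the 5 probes high in most arrays of each chromosome, and windows among the 3 with the smallest p of each limma comparison; other windows were named after their values were seen. Among the wild-type arrays the replicate number marks the cell line, which pairs CT22 with CT34: deviations of same-numbered arrays correlated at 0.870 over the windows of chromosomes 5 and 8 and at 0.856 over all windows off chromosome 7, so the fit with line as a block is given beside the other. The number of arrays limits the precision. Members and rules were chosen with earlier results of these data known.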

Additional observations from a re-analysis of the deposited data

Results flagged for a closer look

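Several values stood apart by simple rules. The share of high probes on chromosome 5 changed from CT22 to CT34 by 0.463 percentage points in Bmal1-/-, against -0.289 in line 1 and -0.0871 in line 2. In block C of chromosome 5 the same change was 2.92 points in Bmal1-/-, against -7.30 in line 1 and -2.19 in line 2. In block F of chromosome 5 it was 3.60 points in Bmal1-/- and -3.60 in each wild-type line. Each of these opposite directions rests on 1 array per line and time, and the differences between lines were not tested.

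Within line 1, CT26 stood apart from the other 4 times in block A of chromosome 8, with 19.6% high probes, and CT46 in block C of chromosome 8, with 16.3%. In both the gap to the nearest array, over the range of the 5, exceeded Dixon's critical value of 0.71. Chance marks about 1 in 20 groups, and 14 sets of 5 arrays were tested.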

How the results depend on the processing

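The excess of chromosome 8 was 0.0553 percentage points with the 99th percentile and 0.949 in line 1 alone, neither past the exact permutation test. Windows called at all 5 line 1 times covered 20 Mb of chromosome 5 with the 90th percentile, 0 Mb of both chromosomes with the 99th, 2.5 and 4 Mb with 500 kb windows, 14 Mb of chromosome 5 with 2 Mb windows, and 5 Mb of it at an adjusted p under 0.01. Silent windows covered 18 and 7 Mb on chromosomes 5 and 8 with the 90th percentile, 44 and 35 Mb with the 99th, 6 and 3 Mb at a limit of 1%, and 56 and 39 Mb at 3%, and 8 Mb of chromosome 8 with 2 Mb windows. Bmal1-/- against WT gave 34 called windows with trend and robust variance, 22 with all 5 line 1 arrays and 11 when those were divided by the array SD. Line 2 against line 1 gave 0 with medians of probes, 0 with shares, 76 after quantile normalization and 71 after division by the SD. With all 5 line 1 arrays it gave 47 with shares and 78 after division. The rhythm gave 1 without a probe minimum. With cell line as a replicate block CT22 against CT34 gave 1 called window, and the Bmal1-/- comparison within replicate number 1 gave 0, so the block changed no other call. The window of chromosome 8 from 45000001 turned from 0.17 to -0.0075 between Bmal1-/- and WT with medians of probes. The values for line 1 alone, for all 5 line 1 arrays on other scales and without a term for time were chosen after seeing the data. The causes of these changes were not tested.

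Leaving out each array in turn, the excess of chromosome 5 ranged from -0.00175 to 0.110 and that of chromosome 8 from 0.597 to 0.742 percentage points. Windows called at the remaining line 1 times covered 9 to 12 Mb of chromosome 5 and 11 to 12 Mb of chromosome 8, and silent windows 25 to 31 and 13 to 23 Mb. Calls were made per array, so leaving an array out could only keep or raise the length of the called windows. Line 2 against line 1 gave 68 to 172 called windows, and the other comparisons 0. With 1 array per line and time, and probes narrower in spread in line 2, size differences between lines are limited by scale.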
